A study of Mus musculus with 6 samples.

Results

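The mouse genome encodes 3 families of chemosensory receptors that work beside the odorant receptors: the type 1 vomeronasal receptors (V1R; rows named Vmn1r or V1r), the type 2 vomeronasal receptors (V2R; rows named Vmn2r) and the trace amine-associated receptors (TAAR; rows named Taar). Rows of the deposited expression table were chosen by these name stems alone, which gave 181 of 19613 rows: 126 V1R rows, 40 V2R rows and 15 TAAR rows. V1ra8 and V1rd19 were the V1R rows with the older stem, and Vmn2r-ps11 and Vmn2r-ps54 were V2R rows named as pseudogenes. All 181 names were current symbols in the RefSeq gene table of assembly GRCm38.p6, which lists 233 protein-coding V1R genes, 124 V2R genes and 15 TAAR genes.

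The 6 arrays formed 1 group, with no untreated or control array analysed here. Each measured embryoid bodies (EBs) that contained spinal motor neurons, differentiated from HBG3 mouse embryonic stem cells, a line whose motor neurons carry the HB9-eGFP reporter. The EBs had been exposed to blood fluid, called plasma in the sample labels and serum in the study's methods, from mice of the strain B6CBA-Tg(HDexon1)62Gpb/3J, a model of Huntington's disease that carries exon 1 of the human huntingtin gene with an expanded CAG repeat; the methods describe male carriers, 10 weeks old and without symptoms, and serum added at 5% for a day. The arrays are called here by the numbers in their titles, replicates 2, 4, 5, 6, 7 and 8. All share the cell line, the reporter and the type of donor, and an EB holds cells other than motor neurons. The methods describe assays run in groups, each on its own batch of differentiated neurons. The labels give these arrays no batch, and the sources used here do not say whether they were 1 such group. The p-values below ask only whether 2 series of values vary alike over these arrays, against all orders of the arrays. They treat the arrays as exchangeable, which an unknown batch or a shift common to an array would break.

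V1R and V2R proteins are G protein-coupled receptors of the vomeronasal organ, where they detect pheromones and other social cues. V1R neurons signal through the G protein subunit encoded by Gnai2 and V2R neurons through that encoded by Gnao1, and both open the cation channel Trpc2. TAARs detect amines, and all but Taar1 are best known from sensory neurons of the main olfactory epithelium, where they use the same cascade as odorant receptors; Taar1 is known from the brain. A single receptor gene is normally active in each sensory neuron, and none of these families is known for a role in spinal motor neurons.

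The Taar7 genes form a subfamily of related copies, and Taar7b, the brightest and most variable of the 181 rows, is one of them. Their starts are shown because a probe that reads several copies would give them a shared signal. Each line gives the first 50 bases from the annotated start in RefSeq on assembly GRCm38.p6, 5′ to 3′ on the coding strand, and capitals mark bases that differ from Taar7b at the same position, with no gaps allowed.
Taar7b, chr10:23999939-23999988, plus strand: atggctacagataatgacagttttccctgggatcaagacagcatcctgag
Taar7d, chr10:24027222-24027271, plus strand: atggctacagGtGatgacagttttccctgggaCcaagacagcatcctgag
Taar7e, chr10:24037614-24037663, plus strand: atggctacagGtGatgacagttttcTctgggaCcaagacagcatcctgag
Taar7f, chr10:24049510-24049559, plus strand: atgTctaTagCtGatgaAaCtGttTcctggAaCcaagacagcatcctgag
Taar7a, chr10:23993432-23993481, minus strand: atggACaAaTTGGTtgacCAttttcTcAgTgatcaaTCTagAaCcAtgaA
Taar7d differed from Taar7b at 3 of the 50 positions, Taar7e at 4, Taar7f at 10 and Taar7a at 20. All 5 windows open with the start codon atg. The probe positions of the array were not used here, so which probes the copies share was not tested.

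The values are gene intensities on an arbitrary scale, shown as log2. Probes differ in how well they bind, so a brighter row is not shown to hold more transcript than a dimmer one, and the families are compared only as distributions of intensity. Array medians over all rows ran from 296 to 311 on the linear scale. The odorant receptor rows (Olfr, 1032 rows) were used to set a background level, the 95th percentile of their mean log2 intensities, which was 7.47. By this yardstick 65.2% of all rows lay above background, and 5.04% of Olfr rows did by construction. All 5 motor neuron genes listed lay above background (Mnx1 8.48, Isl1 10.33, Lhx3 8.64, Chat 9.42 and Olig2 9.0, mean log2 intensities over 6 arrays). Because 65.2% of all rows did so too, this cut cannot by itself identify a cell type.

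Vomeronasal and trace amine receptors sat at the bottom of the intensity range, together with the odorant receptors. The median over rows of the mean log2 intensity was 5.11 for V1R, 5.47 for V2R and 5.88 for TAAR rows, against 5.54 for Olfr rows, 5.69 for the 34 bitter taste receptor rows (Tas2r) and 8.26 for all rows. The interquartile range of the V1R rows ran between 4.35 and 5.6, that of the V2R rows between 4.65 and 6.26, that of the TAAR rows between 5.20 and 6.32 and that of the Olfr rows between 4.93 and 6.26. The families therefore overlapped over most of their ranges, with V1R rows the dimmest by median.

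The V1R median varied least between arrays and the TAAR median most (SD of the array medians 0.047 for V1R, 0.094 for V2R, 0.15 for TAAR and 0.073 for Olfr). In replicates 2, 4, 5, 6, 7 and 8 the V1R median was 5.08, 5.09, 5.08, 5.14, 5.11 and 5.0. The V2R median was 5.64, 5.40, 5.51, 5.59, 5.64 and 5.52, and the TAAR median was 5.77, 6.05, 6.01, 5.76, 5.67 and 5.89. The Olfr median was 5.49, 5.58, 5.6, 5.61, 5.61 and 5.44. V1R and Olfr were both lowest in replicate 8, V2R in replicate 4 and TAAR in replicate 7, so the family medians did not share a lowest array. With 15 TAAR rows, the TAAR median is the value of a single row in each array. Rows brighter than the median Olfr row were lowest on average in replicate 8 in each family. There they lay below their own means (V1R -0.20, V2R -0.13, TAAR -0.26), while the dimmer rows lay slightly above theirs (0.0086, 0.042 and 0.065).

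**Figure D1:**
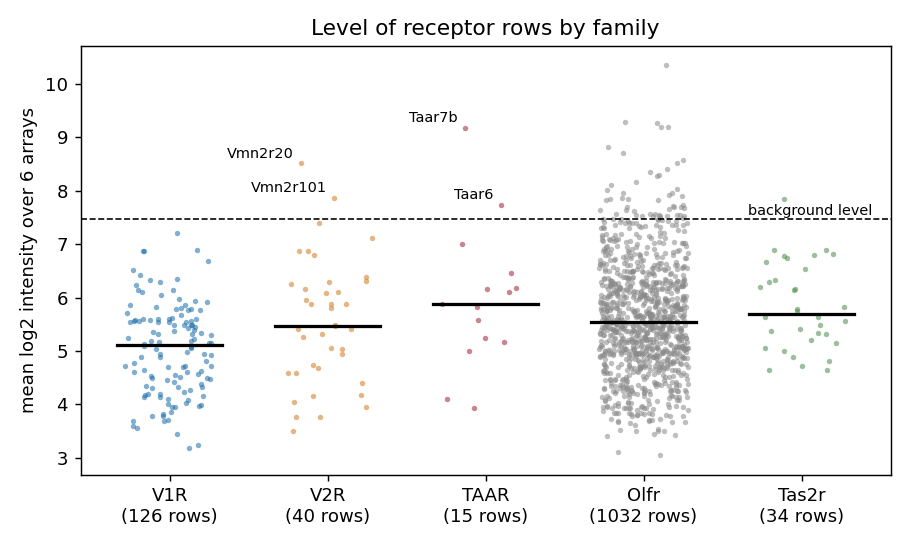
Mean log2 intensity over 6 arrays (vertical axis) of every row of 5 receptor families; each point is 1 gene row, spread sideways at random, black bars are family medians and the dashed line is the background level of 7.47. Of the 181 vomeronasal and trace amine receptor rows, Taar7b, Vmn2r20, Vmn2r101 and Taar6 lie above the line.

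The number of receptor rows above background was 4 of 181 (2.21%), beside the 65.2% of all rows and the 5.04% of Olfr rows given above. They were 2 of 15 TAAR rows (Taar7b and Taar6), 2 of 40 V2R rows (Vmn2r20 and Vmn2r101) and 0 of 126 V1R rows. The row just above the level was Taar6 (7.74) and the row just below it was Vmn2r16 (7.40). The lowest of all members was Vmn1r200, with a mean of 3.18. Since the level was taken from Olfr rows, being above it says that a row was brighter than most odorant receptor rows.

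Taar7b was the brightest member and the member with the widest spread. Its log2 intensity was 9.15 in replicate 2, 9.04 in replicate 4, 9.37 in replicate 5, 9.63 in replicate 6, 10.29 in replicate 7 and 7.61 in replicate 8 (mean 9.18 ± 0.89, SD, n = 6). Replicate 7 was 6.41-fold above replicate 8, and replicate 8 alone was more than 1 log2 unit below each of the other arrays. Without replicate 8 the SD was 0.50. Among the 2027 rows whose mean lay within 0.25 of that of Taar7b, the median SD was 0.0738 and all had a smaller SD than Taar7b. Taar7b was singled out for this spread, so the comparison is a description and carries no test.

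Taar6, the other TAAR row above background, gave 7.79, 7.66, 8.12, 7.81, 7.81 and 7.24 in replicates 2, 4, 5, 6, 7 and 8 (7.74 ± 0.29). Replicate 8 was again the lowest array. Pearson's r between Taar6 and Taar7b was 0.77 over the 6 arrays (exact two-sided permutation p = 0.0903) and 0.12 without replicate 8. Taar5, a receptor for trimethylamine, followed at 7.0 ± 0.17 (6.89, 7.01, 7.21, 7.18, 6.93 and 6.76 in the same order). The values of Taar6 and Taar5 did not overlap, and neither did those of Taar5 and the next row, Taar8c. Lower in the order, neighbours overlapped, except Taar7e and Taar2. The values of Taar7b and Taar6 overlapped, through replicate 8 of Taar7b.

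The remaining TAAR rows lay below 6.50 in mean. Taar8c gave 6.46 ± 0.24, Taar4 6.18 ± 0.18, Taar9 6.16 ± 0.27 and Taar8a 6.11 ± 0.13. Taar1, the brain receptor for trace amines, gave 5.77, 5.99, 6.01, 5.76, 5.64 and 6.09 (5.88 ± 0.18), near the middle of the Olfr range. Taar7a (5.82 ± 0.24), Taar3 (5.58 ± 0.18), Taar8b (5.24 ± 0.27), Taar7d (5.16 ± 0.54) and Taar7e (4.99 ± 0.13) came next. Taar2 (4.11 ± 0.07) and Taar7f (3.93 ± 0.12) were the dimmest. All 4 copies of Taar7b were dimmer than it in every array.

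Among the V2R rows, Vmn2r20 was the brightest, with 8.03, 8.54, 8.49, 9.17, 8.77 and 8.09 in replicates 2, 4, 5, 6, 7 and 8 (8.52 ± 0.43). It was highest in replicate 6 and lowest in replicate 2, an order that differs from that of Taar7b at both ends, but replicate 8 was its next lowest array. Pearson's r between Vmn2r20 and Taar7b was 0.66 over the 6 arrays (exact two-sided permutation p = 0.149) and 0.54 without replicate 8. For Vmn2r101, the other V2R row above background, r with Taar7b was -0.23. The SD of Vmn2r20 was larger than that of 99.9% of the 2016 rows of like level. Its neighbour on the chromosome in the RefSeq order, Vmn2r19, had a mean of 4.15.

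Vmn2r101 gave 8.02, 7.84, 7.90, 8.02, 7.62 and 7.83 (7.87 ± 0.15) and Vmn2r16 gave 7.52, 7.47, 7.43, 7.37, 7.61 and 7.02 (7.40 ± 0.20). Both were steadier than Vmn2r20. Vmn2r70 (7.11 ± 0.21) and Vmn2r89 (6.87 ± 0.15) completed the V2R rows among the 8 brightest vomeronasal rows. Of the V1R rows, Vmn1r183 was the brightest at 7.20, 7.56, 7.44, 7.05, 7.48 and 6.48 (7.20 ± 0.40), again lowest in replicate 8. Vmn1r89 (6.88 ± 0.34) and Vmn1r228 (6.87 ± 0.43) came next. The rows named as pseudogenes were no dimmer than most V2R rows, with 6.09 ± 0.15 for Vmn2r-ps11 and 6.79 ± 0.09 for Vmn2r-ps54.

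By median SD, V1R rows spread over the arrays about as Olfr rows did, TAAR rows less, and V2R rows least. The median SD was 0.212 for V1R, 0.158 for V2R and 0.180 for TAAR rows, against 0.222 for Olfr rows and 0.0978 for all rows. Dim rows vary more on the log2 scale, so each row was also set beside the rows within 0.25 of its mean. By this measure the median V1R row had a larger SD than 67.5% of rows of like level, the median TAAR row 71.2% and the median Olfr row 72.1%, while the median V2R row had a larger SD than 47.0%. The 54 members with a mean between 4 and 5 had a median SD of 0.176, against 0.224 for Olfr rows and 0.167 for the rows at that level that were neither. Between 5 and 6 the medians were 0.212 for 70 members, 0.228 for Olfr rows and 0.155 for the rows that were neither. Between 6 and 7 they were 0.204 for 29 members, 0.222 and 0.142, and between 7 and 8 they were 0.209 for 5 members, 0.207 and 0.127. Between 3 and 4 the order differed, with 0.188 for 21 members, 0.198 for Olfr rows and 0.223 for the 22 rows that were neither.

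**Figure D2:**
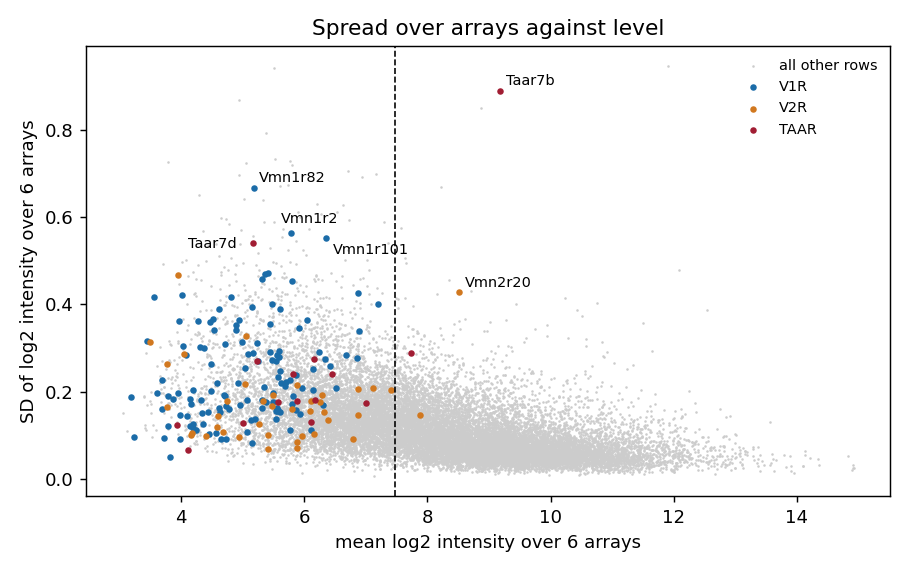
SD of the log2 intensity over 6 arrays (vertical axis) against the mean log2 intensity (horizontal axis) for V1R (blue), V2R (orange) and TAAR (red) rows and all other rows (grey); the dashed line is the background level of 7.47. Most receptor rows lie in the cloud of dim rows, and Taar7b, with an SD of 0.89 at a mean of 9.18, lies far above the rows of its level.

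An SD over 0.5 was found for 5 of 181 members (2.76%), against 0.316% of all rows and 2.03% of Olfr rows. Besides Taar7b these were Vmn1r82, Vmn1r2, Vmn1r101 and Taar7d. The wide rows shared their extreme arrays only in part: Vmn1r82, Vmn1r2 and Vmn1r101 were lowest in replicate 2, Vmn1r82 and Vmn1r2 were highest in replicate 6, and Taar7b and Taar7d had opposite ends. Vmn1r82 gave 4.54, 4.76, 5.86, 6.16, 5.0 and 4.75 in replicates 2, 4, 5, 6, 7 and 8 (5.18 ± 0.67), high in replicates 5 and 6. Vmn1r2 gave 4.90, 6.11, 5.59, 6.32, 5.50 and 6.32 (5.79 ± 0.56), high in replicates 4, 6 and 8. Vmn1r101 gave 5.88, 7.36, 6.25, 6.51, 6.16 and 5.90 (6.35 ± 0.55), set apart by replicate 4. The next widest vomeronasal rows were Vmn1r63, Vmn1r180, Vmn2r23, Vmn1r179 and Vmn1r198, with SDs from 0.45 to 0.47.

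The Taar7 copies did not rise and fall with Taar7b. Taar7d, which differed from Taar7b at 3 of the 50 start positions, gave 5.05, 5.68, 4.71, 5.19, 4.48 and 5.88 in replicates 2, 4, 5, 6, 7 and 8 (5.16 ± 0.54). It was highest in replicate 8, where Taar7b was lowest, and lowest in replicate 7, where Taar7b was highest. Pearson's r between the pair was -0.84 over the 6 arrays (exact two-sided permutation p = 0.0194, Benjamini-Hochberg adjusted p = 0.166 over all 19612 other rows) and Spearman's rho was -0.83 (exact permutation p = 0.0583). With any single array left out, r ran from -0.91 (without replicate 4) to -0.74 (without replicate 8). Leaving out both replicates 7 and 8, where Taar7b lay farthest from its median, r was -0.45. These arrays were chosen for their extreme values, which narrows the range of Taar7b, so a weaker r there cannot show what the relation rests on.

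Taar7a (5.77, 6.22, 5.59, 5.66, 5.67 and 6.0) and Taar7e (4.94, 5.23, 4.88, 4.98, 4.90 and 5.03) were both highest in replicate 4. Their r with Taar7b was -0.57 (exact permutation p = 0.242) and -0.37 (exact permutation p = 0.381). Taar7f (4.04, 3.89, 3.92, 3.74, 4.09 and 3.91) had an r of 0.24 with Taar7b (exact permutation p = 0.657). None of the copies was called as following Taar7b, and with 6 arrays a p above the threshold does not show that they were unrelated.

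Among themselves, Taar7a, Taar7d and Taar7e varied together. The r between Taar7a and Taar7e was 0.94 (rho 0.83, exact permutation p of r = 0.0111, adjusted p = 0.611 over all rows). It was 0.43 without the 2 arrays in which Taar7a lay farthest from its median, and 0.74 without the 2 in which Taar7e did. Without replicate 8 it was 0.96. Taar7a and Taar7d had an r of 0.83 (exact permutation p = 0.0431, adjusted p = 0.611), and Taar7d and Taar7e an r of 0.77 (exact permutation p = 0.0528, adjusted p = 0.353). With 2 arrays left out in the same way, Taar7a and Taar7d gave 0.41 (arrays chosen by Taar7a) or 0.92 (by Taar7d). Taar7d and Taar7e gave 0.96 (by Taar7d) or 0.97 (by Taar7e). No adjusted value passed 0.05. Taar7f, 10 bases from Taar7b, had an r of -0.48 with Taar7d and -0.35 with Taar7e.

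**Figure D3:**
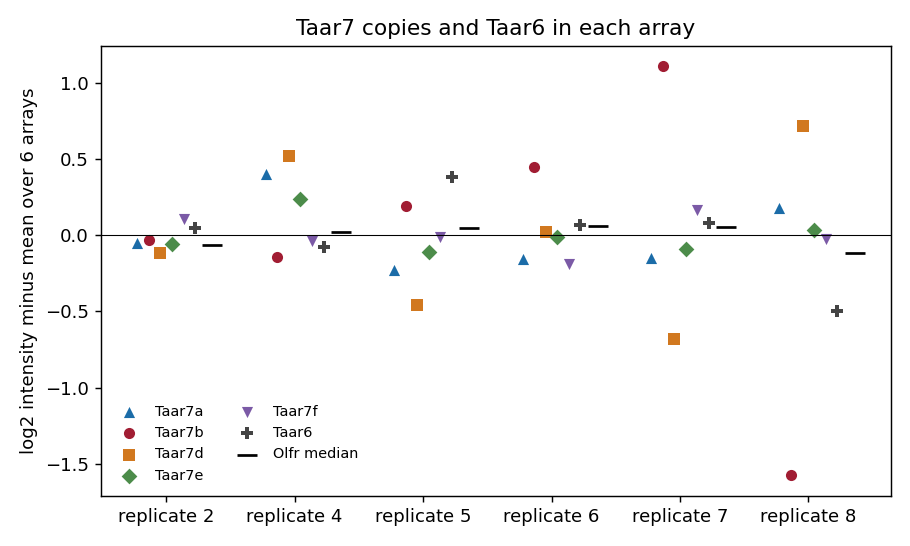
Log2 intensity minus the row's own mean over 6 arrays (vertical axis) for the 5 Taar7 copies, Taar6 and the median of the Olfr rows in each array; each symbol is 1 row in 1 array, set side by side for clarity. Taar7b is highest in replicate 7 and lowest in replicate 8, and Taar7d is lowest and highest in the same arrays.

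Across the 15 TAAR rows, the 105 pairs had a median r of 0.071, and 4.76% of them exceeded 0.8 while 2.86% lay below -0.8. The pairs with the highest r were Taar7a with Taar7e (0.94), Taar2 with Taar4 (0.88), Taar5 with Taar9 (0.85), Taar7a with Taar7d (0.83) and Taar5 with Taar6 (0.80). Those with the lowest were Taar7b with Taar7d (-0.84), Taar6 with Taar7d (-0.81) and Taar1 with Taar7b (-0.80). The TAAR genes lie in 1 run in the RefSeq order, between Vnn1 and Stx7. Neighbours in that run ranged from an r of 0.80 (Taar5 and Taar6) to -0.78 (Taar7f and Taar8a). Stx7, a syntaxin gene just beyond the run, was bright at 9.86 and had an r of -0.65 with Taar9, its neighbour.

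**Figure D4:**
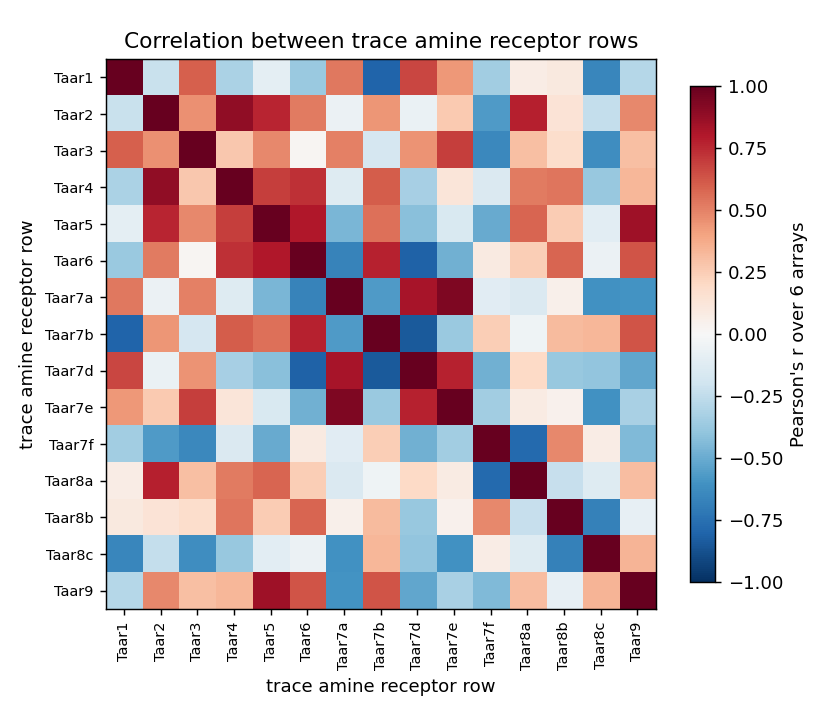
Pearson's r over 6 arrays between every pair of the 15 TAAR rows, from -1 (blue) to 1 (red). Taar7a, Taar7d and Taar7e form a red block (0.77 to 0.94), and the Taar7b cells with Taar1 and Taar7d are blue (-0.80 and -0.84).

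Whether Taar7b moved with the other receptors was asked with the same exact permutation test for every row. Of the 180 other members, 8 followed it at an unadjusted exact p under 0.05 (4.44%), against 15.3% of all rows and 8.43% of Olfr rows. These were 5 of 126 V1R rows (Vmn1r19 with an r of 0.91, Vmn1r54, Vmn1r45, Vmn1r24 and Vmn1r121), 3 of 40 V2R rows (Vmn2r16 with 0.89, Vmn2r89 and Vmn2r92) and 0 of 14 TAAR rows. A further 6 members moved against it (3.33%, against 5.41% of all rows): Vmn1r6 (-0.98), Vmn2r26 (-0.89), Vmn1r18, Vmn2r58, Taar7d and Taar1. After Benjamini-Hochberg adjustment of this permutation test, 0 of 19612 rows passed 0.05, where 3010 followed at the unadjusted threshold. The smallest p that the orders of 6 arrays allow is 0.00139 and the smallest adjusted p was 0.0983.

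The members' share was therefore below that of the table as a whole. The median r with Taar7b was 0.14 for V1R, 0.14 for V2R and 0.28 for TAAR rows, against 0.30 for Olfr rows and 0.16 for all rows. Vmn1r6, the member most opposed to Taar7b, gave 3.89, 4.19, 3.86, 3.80, 3.54 and 4.75 in replicates 2, 4, 5, 6, 7 and 8. The rows most like Taar7b in the whole table, chosen after their values were seen, were no members: Gpr142 (r 0.999), Sdcbp2 (0.998) and the odorant receptor Olfr656 (0.998). Each put the 6 arrays in the same order as Taar7b. Their r stayed at 0.995, 0.994 and 0.993 without replicate 8.

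Replicate 8 carried most of the following. Without it 0 members followed Taar7b and 3.82% of all rows did, whereas leaving out each of the other arrays left 4 to 7 members and 10.3% to 13.6% of all rows; with 5 arrays the smallest p is 0.00833. After the Olfr median of each array was subtracted, 1 member and 4.86% of all rows followed it. Against Taar7b on that scale, Taar1 had an r of -0.94 and Taar7d of -0.88.

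**Figure D5:**
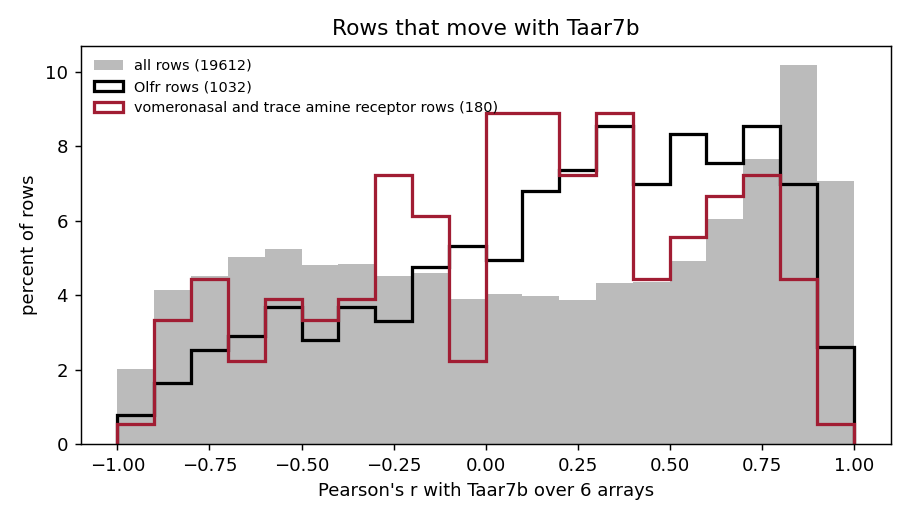
Share of rows in percent (vertical axis) by Pearson's r with Taar7b over 6 arrays (horizontal axis), for all rows (grey), Olfr rows (black line) and the 180 other vomeronasal and trace amine receptor rows (red line). The share called as following Taar7b is 15.3% of all rows, 8.43% of Olfr rows and 4.44% of the receptor rows, while the median r is highest for Olfr rows (0.30, against 0.16 for all rows and 0.14 for the receptor rows).

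The other bright or wide members drew few members with them. Of 180 rows, 9 followed Vmn2r20 (5%, against 5.21% of all rows), 11 followed Taar6 (6.11%, against 14.2%), 7 followed Vmn2r16 (3.89%, against 4.31%), 2 followed Vmn1r2 (1.11%, against 1.63%) and 5 followed Taar7d (2.78%, against 4.24%). For 3 rows the share of members exceeded that of the table: 13 followed Vmn1r82 (7.22%, against 3.81%), 7 followed Vmn1r101 (3.89%, against 1.71%) and 4 followed Vmn2r101 (2.22%, against 0.581%). These shares are counts over rows that are not independent, and whether they differ was not tested.

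The median of the Olfr rows was followed by more members than Taar7b was. At an unadjusted exact permutation p under 0.05, 16 of 181 members followed the Olfr median (8.84%), against 15.3% of all rows and 10.1% of Olfr rows, which themselves make up that median. They were 9 V1R, 4 V2R and 3 TAAR rows (Taar7b, Taar9 and Taar6). Vmn1r121 (r 0.99), Vmn2r92 (0.97), Vmn1r225 (0.97), Vmn1r228 (0.95) and Vmn2r89 (0.94) were among the closest. A further 3 members moved against it (1.66%, against 5.02% of all rows). After Benjamini-Hochberg adjustment of the same permutation test, 0 rows passed, and the smallest adjusted p was 0.130.

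Vmn1r225 and Vmn2r92 formed the pair of members with the highest r (0.97) among those brighter than the Olfr median. Vmn1r225 gave 5.72, 6.25, 6.28, 6.4, 6.17 and 5.48 and Vmn2r92 gave 6.23, 6.44, 6.43, 6.52, 6.47 and 6.19 in replicates 2, 4, 5, 6, 7 and 8. Both were low in replicates 2 and 8, as was the Olfr median. The pair was picked from all pairs for its r, so the value is a description.

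Co-movement between members was weak. Over 16290 pairs of members the median r was 0.027, with 3.35% of pairs above 0.8 and 2.49% below -0.8. Over 531996 Olfr pairs the median was 0.094, with 4.35% and 2.26%. The mean r between rows was 0.021 within V1R, 0.0026 within V2R, 0.058 within TAAR and 0.074 within Olfr rows. Between families it was 0.021 for V1R with V2R, 0.046 for V1R with TAAR, 0.051 for V2R with TAAR and 0.074 for TAAR with Olfr, so rows of different families were about as related as rows of the same family. These are descriptions over 6 arrays shared by all rows.

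The mean r depended on level and on the scaling of the arrays. The rows were split at the median of the Olfr means (5.54). The 68 members above it had a mean r of 0.16 with one another, and the 113 at or below it had a mean r of -0.00039. The Olfr rows gave 0.16 for the 516 above and 0.033 for the 516 at or below. Of the brighter members 44.1% were lowest in replicate 8, against 17.7% of the dimmer ones. The brighter members lay on average 0.19 below their own mean in replicate 8 and 0.096 above it in replicate 6, while the dimmer ones were 0.017 above their mean in replicate 8. Without replicate 8 the mean r of the brighter members was 0.055, and that of the dimmer members 0.0026. After the Olfr median was subtracted from each array the order turned, with a mean r of 0.013 for the brighter and 0.10 for the dimmer members. The rows that were neither members nor Olfr gave a mean r of 0.017 above 5.54 and 0.053 at or below it.

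By family, the brighter rows had a mean r of 0.19 for the 39 V1R, 0.090 for the 19 V2R and 0.11 for the 10 TAAR rows. The dimmer rows gave -0.00076, -0.031 and -0.014. With the Olfr median subtracted, the brighter rows gave 0.029, -0.027 and -0.012 and the dimmer rows 0.082, 0.14 and 0.25, so in each family the order of brighter and dimmer rows turned. Subtracting the same value from every row of an array can itself raise r, so these values do not show co-movement of the dimmer receptors. Over all members, 27.6% were lowest in replicate 8, against 34.2% of Olfr rows and 36% of all rows. A single array far from the other 5 (Dixon's ratio) was found for 6 members (3.31%), against 6.9% of all rows. Replicate 8 was the high array in Vmn1r205, Vmn2r112 and Vmn2r19, and other replicates were the low array in Vmn1r22, Vmn2r107 and Vmn2r54.

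Pairs of like sequence had a slightly higher median r in the V1R and V2R families, but not all of them moved together. RefSeq windows around the gene start, most of each window lying before it, were held for 160 members (113 V1R, 36 V2R and 11 TAAR). In 129 pairs within a family the windows were more than 75% identical by global alignment, and 4 of these pairs (3.10%) had an r above 0.8, against 3.04% of the other pairs within a family. The 95 close V1R pairs had a median r of 0.13 (range -0.75 to 0.97), against 0.015 for the other V1R pairs. Most of these close pairs were drawn from 1 cluster of like genes, such as Vmn1r107, Vmn1r135 and Vmn1r160, each used in many pairs. The pairs are therefore not independent, and the difference in medians was not tested. The 31 close V2R pairs had a median r of 0.018, against -0.010. These windows stand for likeness around the start, not over the exons that the probes read.

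The closest pairs went both ways. Vmn1r47 and Vmn1r48, with identical windows, had an r of 0.78, and Vmn1r103 and Vmn1r159, 97.7% identical, had an r of 0.78. In contrast, Vmn2r111 and Vmn2r112, 98.3% identical, had an r of -0.38, and Vmn1r107 and Vmn1r135, 98.0% identical, had an r of -0.54. The 3 close TAAR pairs had a median r of -0.35, against 0.11 for the other TAAR pairs. They were Taar7d and Taar7e (86.6%, r 0.77), Taar7d and Taar7f (79.6%, r -0.48) and Taar7e and Taar7f (76.8%, r -0.35). The window of Taar7b was 63.6% identical to that of Taar7d, 61.4% to Taar7e, 60.9% to Taar7f and 57.1% to Taar7a, so its likeness to Taar7d and Taar7e lay in the coding start shown above more than in the bases before it. Vmn1r183, the brightest V1R row, shared 85.2% of its window with its neighbour V1rd19, which was dim at 4.35 (r 0.027).

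The genes that these receptors work with ranged from some of the brightest rows to rows in the Olfr range. Of 29 genes for signalling, transport and development of chemosensory neurons, 20 lay above background (69.0%), a share near the 65.2% of all rows. Gnao1 (12.08 ± 0.09) and Gnai2 (12.04 ± 0.06), the G protein subunits of V2R and V1R neurons that many other neurons also use, were among the brightest. Meis2 (12.11), Gng13 (10.53), Ebf3 (10.43), Ebf1 (10.34), B2m (10.23), Ric8b (10.17), Reep6 (10.14), Reep1 (9.83), Gnal (9.16) and Ebf2 (9.14) followed. Several of these are transcription factors or membrane-traffic genes with broad roles in developing neurons.

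Trpc2, the vomeronasal channel, had a mean of 8.49 ± 0.07. Tfap2e, a transcription factor of V2R neurons, had 8.16 ± 0.11. Kirrel3 (8.56), Bcl11b (8.44), Kirrel2 (8.22), Rtp1 (7.78), Lhx2 (7.72) and Cngb1 (7.67) were also above background. Omp, which marks mature olfactory and vomeronasal neurons, lay below it at 7.0 ± 0.10, as did Adcy3 (7.14), Ano2 (6.94), Cnga2 (6.05) and Cnga4 (5.76). These genes of the odorant cascade thus differed from Gnal, Gng13 and Cngb1, which act in the same cascade and lay above background. Gng8 (6.51), Emx2 (6.46), Stoml3 (6.36) and Rtp2 (6.21) were the other genes below it.

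Other families with members in the vomeronasal organ were dim too. None of the 5 formyl peptide receptor rows (Fpr), not all of which are vomeronasal receptors, was above background, the highest being Fpr-rs3 at 7.22. Of the 6 H2-M10 rows, which encode nonclassical MHC proteins found with V2Rs, only H2-M10.1 was above background (7.52 ± 0.28). Its r with Taar7b was 0.97, against 0.82 for H2-M10.5, 0.29 for H2-M10.2, 0.16 for H2-M10.6, 0.099 for H2-M10.3 and -0.040 for H2-M10.4. Of all rows, 15.3% followed Taar7b. The brightest Olfr rows were Olfr68 (10.34 ± 0.04), Olfr524 (9.28 ± 0.28), Olfr169 (9.26 ± 0.21) and Olfr740 (9.20 ± 0.16). Taar7b was close in mean to Olfr524, Olfr169 and Olfr740 and had a larger SD than each of them.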

How the data were processed

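The 6 arrays were hybridised with RNA of EBs. The deposited intensity values are linear gene intensities made by the authors with robust multi-array averaging (RMA), per the labels in Affymetrix Expression Console and per the methods in Aroma Affymetrix, as the mean over a gene's exons; the genome build is not given in the sources used here. The methods also describe a correction for batches of neurons; whether it was applied to these values is not stated. RMA normalizes arrays to each other, so shifts common to an array are damped.

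Values were converted to log2 without pseudocount or filter. Each row was compared with Taar7b and with the Olfr median by a two-sided exact permutation test of Pearson's r, with Benjamini-Hochberg adjustment over all rows (Python 3.11.15, scipy 1.17.1, numpy 2.4.6, pandas 2.3.3); the script was tested on simulated data. The number of arrays limits the precision. Named genes were all TAAR rows, the 8 brightest and 8 widest vomeronasal rows, the rows beside the background level, the lowest row, the best pair, the signalling list (1 gene of it is not reported here) and the 4 brightest Olfr rows, plus rows called or flagged in a count. Protein identity could not be computed, so RefSeq start windows (Biopython 1.88) took its place; this and the split of rows by level were chosen after the data were seen. The members and lists were chosen with earlier results of these data known.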

Additional observations from a re-analysis of the deposited data

Results flagged for a closer look

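Of 72 sets of array values screened, 8 had 1 array far from the other 5 by Dixon's ratio (the gap to the nearest array over the whole range), where about 3.6 would be picked by chance; of all rows, 6.9% met the same criterion. Replicate 8 was the low array for Trpc2 (8.36 against 8.49 to 8.54 in the others, ratio 0.724), Gng8 (6.09 against 6.51 to 6.75, 0.633), Cnga2 (5.62 against 6.06 to 6.20, 0.747), Olfr740 (8.89 against 9.20 to 9.34, 0.692) and the Tas2r median (5.36 against 5.78 to 5.94, 0.723). It was the high array for Ebf1 (10.49 against 10.27 to 10.34, 0.688) and Ebf2 (9.33 against 9.03 to 9.14, 0.629). Replicate 4 was the low array for Gnal (9.05 against 9.15 to 9.20, 0.631). No TAAR row was among them; Taar7b was low in replicate 8 but high in replicate 7 as well, which widened its range. What sets replicate 8 apart was not tested.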

How the results depend on the processing

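No paired analysis was possible because the arrays form 1 group. Of 170 values recomputed for 16 results, 133 moved by less than their spread over the arrays (counts by less than 1.5 times) and 37 moved more. The cause was not tested. Some of these outcomes were fixed in advance. Current symbols changed no row, and subtracting an array median keeps each row's mean, so the median levels could not move. The coefficients of variation are on another scale than the log2 SDs they were set against, so their moves carry no information. Members above background were 2 with the 99th percentile of Olfr rows, 7 with the 90th, and 4 without any single array. Members following Taar7b were 1 after subtracting the Olfr median, 4 after subtracting the median of all rows, 1 after quantile normalization and 2 by Spearman's rho; without single arrays they ranged from 0 to 7, with 0 without replicate 8, and the SD of Taar7b from 0.497 to 0.995. Members following the Olfr median were 6 after quantile normalization, 9 by Spearman's rho and 9 to 13 without single arrays. The mean r within V1R was 0.0021 after median subtraction, -0.0054 after quantile normalization, 0.187 in rows above the Olfr median and 0.016 to 0.029 without single arrays. Within V2R it was 0.042 after Olfr subtraction, 0.027 after quantile normalization, 0.090 in the brighter rows and -0.0017 to 0.016 without single arrays. Within TAAR it was -0.014 after quantile normalization and -0.00077 to 0.076 without single arrays. Within Olfr it was 0.0036 after Olfr subtraction, 0.036 after median subtraction, 0.0039 after quantile normalization, 0.164 in the brighter rows and 0.040 to 0.084 without single arrays. The median SD of TAAR rows was 0.215 after Olfr subtraction and 0.209 after quantile normalization. As a coefficient of variation (fraction of the mean), the median spread was 0.146 for V1R, 0.108 for V2R, 0.123 for TAAR and 0.154 for Olfr. Without single arrays the median SD was 0.201 to 0.220 for V1R, 0.149 to 0.167 for V2R, 0.171 to 0.198 for TAAR and 0.201 to 0.227 for Olfr, and the median level 5.07 to 5.13, 5.44 to 5.50, 5.83 to 5.92 and 5.53 to 5.56. With 1 added to the intensities the Olfr level was 5.57. Signal near background limits what small differences between dim rows can show.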
